A study of Mus musculus with 20 samples.

Results

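The genes described are Epha2 and 7 other Eph receptors and ephrins measured in mouse liver by polyA RNA sequencing: the receptors Epha2, Ephb2, Ephb3, Ephb4 and Ephb6 and the ephrins Efna1, Efnb1 and Efnb2. They were taken by gene name from a deposited table of 54532 genes and make up 8 of them. Epha2 was chosen by its FPKM values in these same libraries, because its response to bile duct ligation differed between genotypes, so its levels are given as a description, with no test. The study compared mice lacking STING, the adaptor protein encoded by Tmem173, with wild-type mice under cholestasis, the retention of bile that follows when the common bile duct is tied off. The 4 groups of 5 libraries are knockout livers after bile duct ligation (BDL_KO), knockout livers after sham surgery (Sham_KO), wild-type livers after ligation (BDL_Wt) and wild-type livers after sham surgery (Sham_Wt). Ligation lasted 7 days. The labels give no strain, age, sex, knockout allele or time after sham surgery, and do not say whether each library is a separate animal. The p-values here therefore cover only library-to-library spread, which may be partly technical. Livers deficient in Abcb4, which the study design also names, were not analysed here.

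Eph receptors are receptor tyrosine kinases that bind ephrins on the surface of neighbouring cells, so that signals pass at cell contacts in both directions. A-type ephrins are held in the membrane by a lipid anchor and mostly bind EphA receptors, whereas B-type ephrins span the membrane and mostly bind EphB receptors. Ephrin binding by EphA2 usually restrains growth and movement in epithelia, while EphA2 without ligand can be phosphorylated by growth factor pathways and favour movement. In the liver EphA2 sits on hepatocytes, where malaria sporozoites use it during infection, and ephrin-A1 was originally found as a cytokine-induced product of endothelial cells.

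Epha2 (ENSMUSG00000006445) lies on chr4:141301240-141329384, plus strand, and Efna1 (ENSMUSG00000027954) on chr3:89271733-89281142, minus strand, in GRCm38. Their RefSeq promoter windows, from 250 bases before to 50 bases after each annotated start (GRCm38.p6), are shown because the results turn on Epha2 and on Efna1, its most abundant ligand here. Capitals mark matches to the searched motifs. The Epha2 window is chr4:141300971-141301270 on the plus strand. Efna1 has 2 annotated starts, with windows at chr3:89280902-89281201 and chr3:89279596-89279895 on the minus strand.
Epha2 promoter: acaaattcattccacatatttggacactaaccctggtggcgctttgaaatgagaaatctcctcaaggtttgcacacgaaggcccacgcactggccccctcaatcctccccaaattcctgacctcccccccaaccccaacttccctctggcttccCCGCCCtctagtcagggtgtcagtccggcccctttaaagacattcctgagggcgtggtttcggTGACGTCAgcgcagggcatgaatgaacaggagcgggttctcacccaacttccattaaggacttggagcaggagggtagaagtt
Efna1 promoter, upstream start: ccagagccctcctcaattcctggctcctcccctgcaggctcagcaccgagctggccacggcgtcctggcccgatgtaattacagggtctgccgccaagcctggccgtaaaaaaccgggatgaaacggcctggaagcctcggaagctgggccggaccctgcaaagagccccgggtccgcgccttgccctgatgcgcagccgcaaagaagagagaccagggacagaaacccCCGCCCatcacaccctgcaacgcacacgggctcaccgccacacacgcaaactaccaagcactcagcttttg
Efna1 promoter, downstream start: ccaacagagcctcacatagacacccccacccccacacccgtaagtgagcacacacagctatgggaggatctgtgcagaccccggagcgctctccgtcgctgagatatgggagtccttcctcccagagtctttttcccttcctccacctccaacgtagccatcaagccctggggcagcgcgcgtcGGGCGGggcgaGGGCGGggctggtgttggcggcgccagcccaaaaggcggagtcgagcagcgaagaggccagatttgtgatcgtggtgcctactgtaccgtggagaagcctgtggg
The motifs searched on both strands were the AP-1 motif, spelled TGANTCA, the cAMP response element (CRE), spelled TGACGTCA, the GC box, spelled GGGCGG, the E-box, spelled CACGTG, the STAT motif, spelled TTCNNNGAA, the ETS motif, spelled CCGGAAG, and the TATA box, spelled TATAAA. The CCAAT box, spelled as it is named, the interferon-stimulated response element and the inverted repeat bound by the bile acid receptor FXR were also searched. The Epha2 window held the full CRE letters 33 bases before the start and a GC box on the opposite strand, and no match overlapped another in the windows shown. The CRE letters occurred in 1.79% of 32851 promoter windows and the GC box in 35.7%. The Efna1 windows held GC boxes only, 1 on the opposite strand of the upstream window and 2 in the downstream window. These matches are descriptions of the letters and not evidence of binding.

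Sequencing depth, recovered from the deposited FPKM values (fragments per kilobase of exon, scaled by the authors between libraries) and gene lengths, was 14.9 to 20.9 M fragments in genes per library. The library size implied by the authors' scaling was not this total. It was 13.6 M in BDL_KO_2248, against 18.3 M fragments in genes, and 21.4 M in BDL_Wt_2236, against 18.6 M. Tmem173, the targeted gene, averaged 1.42 ± 0.762 FPKM in BDL_KO and 3.64 ± 0.861 in BDL_Wt livers (SD, n = 5 each), a log2 difference of -1.17 (exact two-sided permutation test, p = 0.00794, the smallest this design allows). It averaged 0.743 ± 0.189 FPKM in Sham_KO and 1.71 ± 0.544 in Sham_Wt livers (SD, n = 5 each), a difference of -0.80 (same test, exact p = 0.0159). Libraries overlapped in sham but not in ligated livers. Reads remained in every knockout library, 24 to 129 fragments in BDL_KO and 24 to 40 in Sham_KO. Which exons the knockout removes is not stated in the labels, so reads outside them may be counted. Hepatocyte markers (11 genes such as albumin) summed to 32048 to 55879 FPKM in BDL_KO, 50548 to 62426 in Sham_KO, 23090 to 33562.5 in BDL_Wt and 46750 to 63716.5 in Sham_Wt livers, and none was at 0 in all libraries, so the labelled tissue was present throughout. BDL_KO_2248 and BDL_KO_2359 stood apart from the other BDL_KO libraries, with hepatocyte sums of 55879 and 47660 against 32048 to 36668, and cholangiocyte sums (12 bile duct epithelial markers) of 70.0 and 91.4 against 351 to 579. In each group 2 or 3 libraries carried Y-linked transcripts and the others Xist, so the libraries of a group did not all come from the same animal. Without BDL_KO_2248 and BDL_KO_2359, only the difference between ligation responses is given for Epha2. Values without these 2 libraries are given too for Efna1, Efnb1, Epha1, Efna3 and the pathway genes whose calls depend on them. Both were singled out by markers in these same data, and leaving them out favours genes that rise with ligation. Adjusted p-values without them are therefore descriptions and not independent tests.

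Epha2 was measured at 7.02, 8.56, 5.62, 9.06 and 7.10 FPKM in BDL_KO livers, against 10.7, 6.46, 7.87, 11.7 and 9.91 FPKM in Sham_KO livers. It was at 12.9, 13.3, 12.2, 9.59 and 12.4 FPKM in BDL_Wt livers, against 4.79, 6.02, 4.04, 4.82 and 4.36 FPKM in Sham_Wt livers. In wild type every ligated library was above every sham library. In the knockout the ligated and sham libraries overlapped and the ligated mean was the lower. The lowest BDL_KO values, 5.62 FPKM in BDL_KO_2248 and 7.02 in BDL_KO_2359, came from the libraries that stood apart by their markers. Among BDL_KO libraries only BDL_KO_2248 reached the Sham_Wt range. The order of the group means was BDL_Wt, Sham_KO, BDL_KO and Sham_Wt, at 12.1 ± 1.46, 9.33 ± 2.14, 7.47 ± 1.37 and 4.80 ± 0.749 FPKM (SD, n = 5 each), and each neighbouring pair in that order overlapped in its libraries. Counting error was small beside this spread, since 317 to 1217 fragments lay behind each value.

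**Figure D1:**
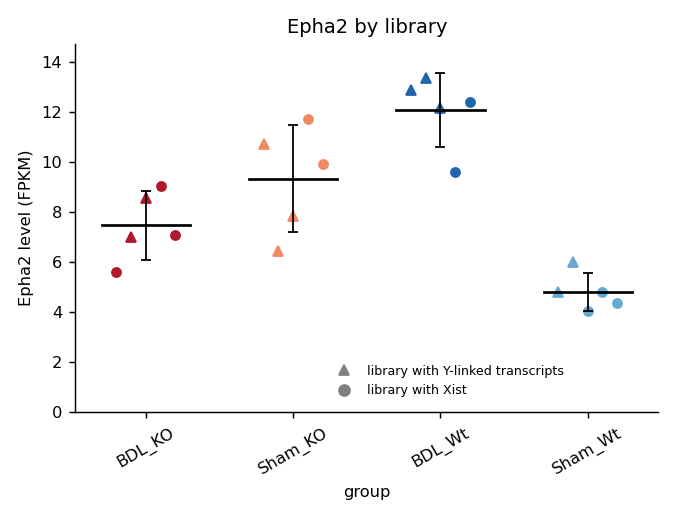
Epha2 level in FPKM (vertical axis) in each library of the 4 groups, with the group mean (line) and SD (bar, n = 5); triangles are libraries with Y-linked transcripts and circles those with Xist. BDL_Wt libraries lie between 9.59 and 13.3 FPKM and Sham_Wt libraries between 4.04 and 6.02, while the knockout libraries span 5.62 to 11.7.

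On the log2(FPKM + 0.5) scale Epha2 was 1.25 ± 0.15 (standard error of the limma fit) higher in BDL_Wt than in Sham_Wt, and the groups did not overlap. Groups were apart in the same comparison for 31.8% of the 14059 genes tested, with the ligated group higher for 16.6% and lower for 15.1%. In the knockout the difference between BDL_KO and Sham_KO was -0.29 ± 0.15, with overlapping groups, where 11.6% of genes were apart (5.85% higher, 5.72% lower). Epha2 was 0.87 ± 0.15 higher in Sham_KO than in Sham_Wt, again without overlap, as for 8.07% of genes (3.49% higher, 4.58% lower). Between ligated livers it was lower in BDL_KO than in BDL_Wt, by -0.67 ± 0.15 and without overlap, as for 5.50% of genes (2.17% higher, 3.33% lower). The difference between the 2 ligation responses was -1.54 ± 0.21, the value that chose the gene. Since each of the 4 groups enters several of these comparisons, the comparisons are not independent of each other.

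The Epha2 differences kept their signs when libraries or scalings were changed. Epha2 was chosen by its response in these same libraries, so kept signs were to be foreseen and are no support for the difference. Without BDL_KO_2248 and BDL_KO_2359 the difference between ligation responses was -1.40, and with 1 library left out at a time it lay between -1.66 and -1.45. Libraries with Y-linked transcripts gave -1.25 on their own and those with Xist -1.78. Within Y-linked libraries Epha2 averaged 7.79 FPKM in BDL_KO, 8.34 in Sham_KO, 12.8 in BDL_Wt and 5.40 in Sham_Wt. Within Xist libraries it averaged 7.26 FPKM in BDL_KO, 10.8 in Sham_KO, 11.0 in BDL_Wt and 4.41 in Sham_Wt. The difference of Sham_KO from Sham_Wt was 0.56 in Y-linked and 1.20 in Xist libraries, and that of BDL_KO from Sham_KO -0.07 and -0.56. Scaling every library to the same sum of values (TPM) shifted the median of all genes by 0.29 between BDL_Wt and Sham_Wt, and Epha2 then differed by 1.62.

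Markers of other liver cell types moved in the same comparisons. Cholangiocyte markers summed to 70.0 to 579 FPKM in BDL_KO, 33.8 to 39.2 in Sham_KO, 243 to 631 in BDL_Wt and 27.4 to 34.1 in Sham_Wt livers. Of 10 tested, 7 were higher in BDL_KO than Sham_KO, as were 12.3% of all genes. In BDL_Wt 9 of 10 were higher than in Sham_Wt, as were 18.1% of all genes. Monocyte and recruited macrophage markers (10 genes) summed to 90.0 to 721 FPKM in BDL_KO, 70.8 to 121 in Sham_KO, 405 to 756 in BDL_Wt and 47.1 to 98.1 in Sham_Wt livers. The gene Spp1 is in this list and in the cholangiocyte list, so the sums of these lists are not separate. Between Sham_KO and Sham_Wt Epha2 differed by 0.87. The median log2 difference of the tested markers there was 0.10 for cholangiocytes, 0.12 for hepatocytes, 0.23 for sinusoidal and 0.27 for vascular endothelium. It was -0.04 for monocytes and recruited macrophages, -0.38 for Kupffer cells and -0.52 for neutrophils. For stellate cells and fibroblasts it was 0.12, for T and NK cells -0.36 and for B and plasma cells -0.18. The part of these markers in the Epha2 values was not tested, and in whole liver fewer cells of a type and less RNA per cell cannot be told apart.

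Efna1, the most abundant gene of the family here, was at 30.7, 27.0, 33.7, 21.7 and 27.2 FPKM in BDL_KO livers, against 27.1, 16.2, 13.3, 12.9 and 15.6 FPKM in Sham_KO livers. It was at 24.1, 20.1, 19.4, 12.0 and 13.1 FPKM in BDL_Wt livers, against 50.3, 20.0, 14.1, 10.6 and 8.73 FPKM in Sham_Wt livers. Only Sham_KO_2347 reached the BDL_KO range among Sham_KO libraries, and Sham_Wt_2223 alone spread the Sham_Wt group widely. Efna1 averaged 28.1 ± 4.50 FPKM in BDL_KO and 17.0 ± 5.81 in Sham_KO livers, a log2 difference of 0.74 ± 0.34 that did not pass the threshold (limma, adjusted p = 0.119; 95% confidence interval 0.03 to 1.46). Against the 17.8 ± 5.09 FPKM of BDL_Wt livers the BDL_KO difference was 0.68 ± 0.34 (adjusted p = 0.229), and the difference between ligation responses was 0.72 ± 0.48 (adjusted p = 0.598; interval -0.30 to 1.73). Sham_Wt livers averaged 20.7 ± 17.0 FPKM, and the difference of BDL_Wt from them was 0.03 ± 0.34 (adjusted p = 0.959).

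Efna1 was also compared between library types. It averaged 17.0 FPKM in the 10 libraries with Xist and 24.8 in the 10 with Y-linked transcripts, a log2 difference of -0.66 ± 0.20 that did not pass the threshold (limma, adjusted p = 0.119; 1.92% of genes did). Among BDL_Wt livers the 2 Xist libraries averaged 12.6 FPKM and the 3 Y-linked libraries 21.2, and among Sham_Wt livers 3 Xist libraries averaged 11.2 and 2 Y-linked libraries 35.1. With library type as a term in the fit, the BDL_KO against Sham_KO difference of Efna1 became 0.88 ± 0.28 and passed the threshold (adjusted p = 0.0284). It also passed with TPM scaling (0.93, adjusted p = 0.0496) and with only those groups fitted (0.74, adjusted p = 0.0366). Without BDL_KO_2248 and BDL_KO_2359 it was 0.61 (adjusted p = 0.272).

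The amount of Epha2 relative to its ligand Efna1 in the same library does not depend on how libraries are scaled. The ratio of Epha2 to Efna1 FPKM was 0.229, 0.317, 0.167, 0.417 and 0.261 in BDL_KO livers, against 0.396, 0.398, 0.594, 0.909 and 0.633 in Sham_KO livers. It was 0.534, 0.665, 0.625, 0.798 and 0.947 in BDL_Wt livers, against 0.0954, 0.301, 0.287, 0.453 and 0.499 in Sham_Wt livers. All BDL_Wt libraries were above all Sham_Wt libraries, whereas BDL_KO lay mostly below Sham_KO, with only BDL_KO_2370 inside the Sham_KO range. The means were 0.278 ± 0.0949, 0.586 ± 0.211, 0.714 ± 0.161 and 0.327 ± 0.159 in BDL_KO, Sham_KO, BDL_Wt and Sham_Wt (SD, n = 5 each). The ratio contains Epha2 and so carries no test. The ratio of Epha2 to Ephb4 averaged 1.19 ± 0.217, 1.72 ± 0.498, 2.18 ± 0.449 and 0.835 ± 0.182 in the same groups, with BDL_Wt highest and Sham_Wt lowest. The ratio of Epha2 to Epha1 averaged 0.621 ± 0.155, 1.29 ± 0.305, 0.881 ± 0.187 and 0.558 ± 0.0798, with Sham_KO highest, so the order of groups depended on the gene Epha2 was set against.

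**Figure D2:**
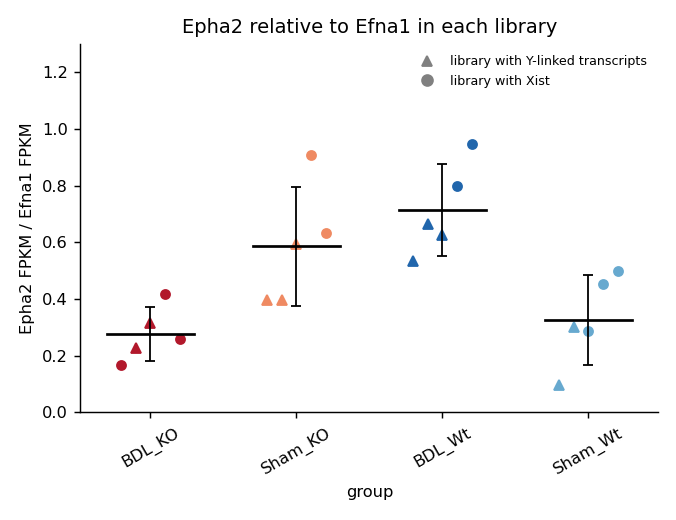
Ratio of Epha2 FPKM to Efna1 FPKM in each library (vertical axis) by group, with the group mean (line) and SD (bar, n = 5); triangles are libraries with Y-linked transcripts and circles those with Xist. BDL_Wt ratios run from 0.534 to 0.947 and BDL_KO ratios from 0.167 to 0.417.

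Of the 7 members other than Epha2, 4 were abundant enough to test: Ephb4, Ephb6, Efna1 and Efnb1. With limma at an adjusted p below 0.05, 0 of 4 differed between BDL_Wt and Sham_Wt, where 35.6% of all genes did (18.1% higher, 17.5% lower), and 1 of 4 between BDL_KO and Sham_KO, where 25.1% did (12.3% higher, 12.9% lower). Between genotypes, 0 of 4 differed in sham livers (2.97% of all genes, 1.31% higher and 1.66% lower), 0 of 4 in ligated livers (8.83%, 3.46% higher and 5.37% lower) and 0 of 4 in their ligation response (0.377%, 0.156% higher and 0.220% lower). At an unadjusted p below 0.05 the counts were 0, 2, 0, 0 and 0 in these 5 comparisons. The share of all genes at that threshold was not counted, so 2 of 4 is no result about the members. Voom on recovered fragments called 0, 1, 0, 0 and 0 members, where it called 5018, 3366, 337, 1316 and 22 of 13951 genes. The plot of differences with confidence intervals shows how wide each estimate was.

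**Figure D3:**
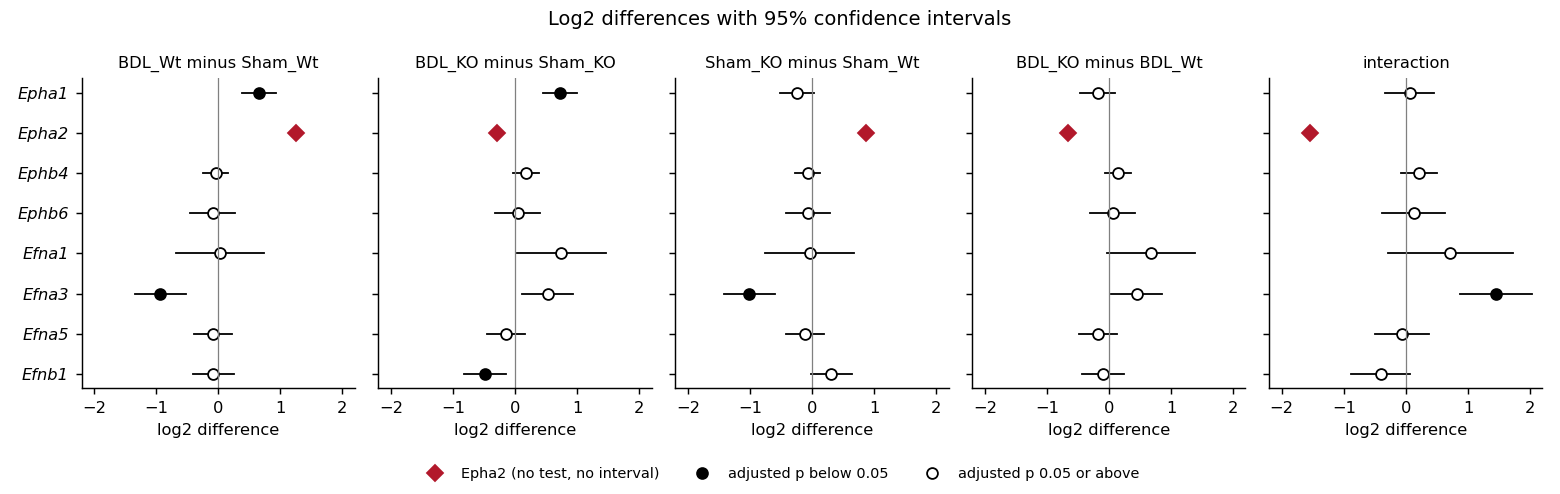
Log2 differences (horizontal axes) of the 8 Eph receptors and ephrins above the filter in 5 comparisons, with 95% confidence intervals from limma; filled circles passed an adjusted p of 0.05, open circles did not, and diamonds are Epha2, given with no interval or test. The last panel is the BDL_KO minus Sham_KO difference less the BDL_Wt minus Sham_Wt difference; Epha2 stands at -1.54 and Efna3 at 1.46.

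Ephb4 (chr5:137350109-137378669), the ephrin-B2 receptor of venous endothelium, varied little. It was at 5.42, 6.06, 6.44, 7.00 and 6.69 FPKM in BDL_KO livers, against 4.49, 6.12, 5.39, 6.22 and 5.47 FPKM in Sham_KO livers, and ran from 5.00 to 6.80 FPKM in BDL_Wt and from 5.34 to 6.49 in Sham_Wt livers. All 4 groups overlapped. BDL_KO and Sham_KO differed by 0.18 ± 0.10 (limma, adjusted p = 0.190; 95% confidence interval -0.03 to 0.38), and the difference of BDL_KO from BDL_Wt, 0.15 ± 0.10 (adjusted p = 0.379), became -0.12 with TPM scaling and -0.05 with scaling to total fragments. The difference of BDL_Wt from Sham_Wt was -0.04 ± 0.10 (adjusted p = 0.791; interval -0.24 to 0.17), which became 0.27 with TPM scaling. Ephb4 shares its end with the opposite-strand gene Zan, and the kit's strandedness is not given, so reads in the shared stretch cannot be assigned.

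Ephb6 (chr6:41605482-41620509), whose product lacks kinase activity, was low throughout, with means of 0.412 ± 0.0915, 0.390 ± 0.120, 0.390 ± 0.201 and 0.446 ± 0.224 FPKM in BDL_KO, Sham_KO, BDL_Wt and Sham_Wt livers and 11 to 51 fragments a library. It just passed the filter, reaching 0.5 FPKM in 5 of 20 libraries. The groups overlapped, adjusted p-values from limma ran from 0.727 to 0.894, and the interval for BDL_Wt against Sham_Wt was -0.45 to 0.27.

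Efnb1 (chrX:99136130-99148991), a transmembrane ligand of EphB receptors, was the only member called in the fit to all libraries at the filter used. It was at 3.96, 6.01, 2.85, 5.62 and 4.36 FPKM in BDL_KO livers, against 6.34, 7.92, 5.79, 5.58 and 6.51 FPKM in Sham_KO livers. It was at 4.58, 3.93, 5.47, 4.37 and 5.63 FPKM in BDL_Wt livers, against 6.07, 5.60, 5.06, 5.02 and 3.75 FPKM in Sham_Wt livers. The 3 lowest BDL_KO libraries were below every Sham_KO library and the other BDL_KO libraries were within the Sham_KO range. Efnb1 fell to 4.56 ± 1.28 FPKM in BDL_KO, against 6.43 ± 0.919 in Sham_KO livers, a log2 difference of -0.48 ± 0.16 (limma, adjusted p = 0.0336). The lowest libraries were BDL_KO_2248 and BDL_KO_2359, which also stood apart by their markers. Without both, the difference was -0.25 ± 0.15 and the call was lost (adjusted p = 0.198).

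The Efnb1 call was also lost in 6 of 10 fits that left out 1 library (without Sham_KO_2347, Sham_KO_2349, Sham_KO_2353, BDL_KO_2359, BDL_KO_2248 or BDL_KO_2371), with differences between -0.58 and -0.34 over all 10 and adjusted p up to 0.0855. Between BDL_Wt and Sham_Wt it differed by -0.08 ± 0.16 (adjusted p = 0.747), 0.23 with TPM scaling, and between Sham_KO and Sham_Wt by 0.31 ± 0.16 (adjusted p = 0.325). The difference between ligation responses was -0.41 ± 0.23 (adjusted p = 0.494; 95% confidence interval -0.88 to 0.07), so the fall in the knockout was not shown to differ from the wild-type value.

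**Figure D4:**
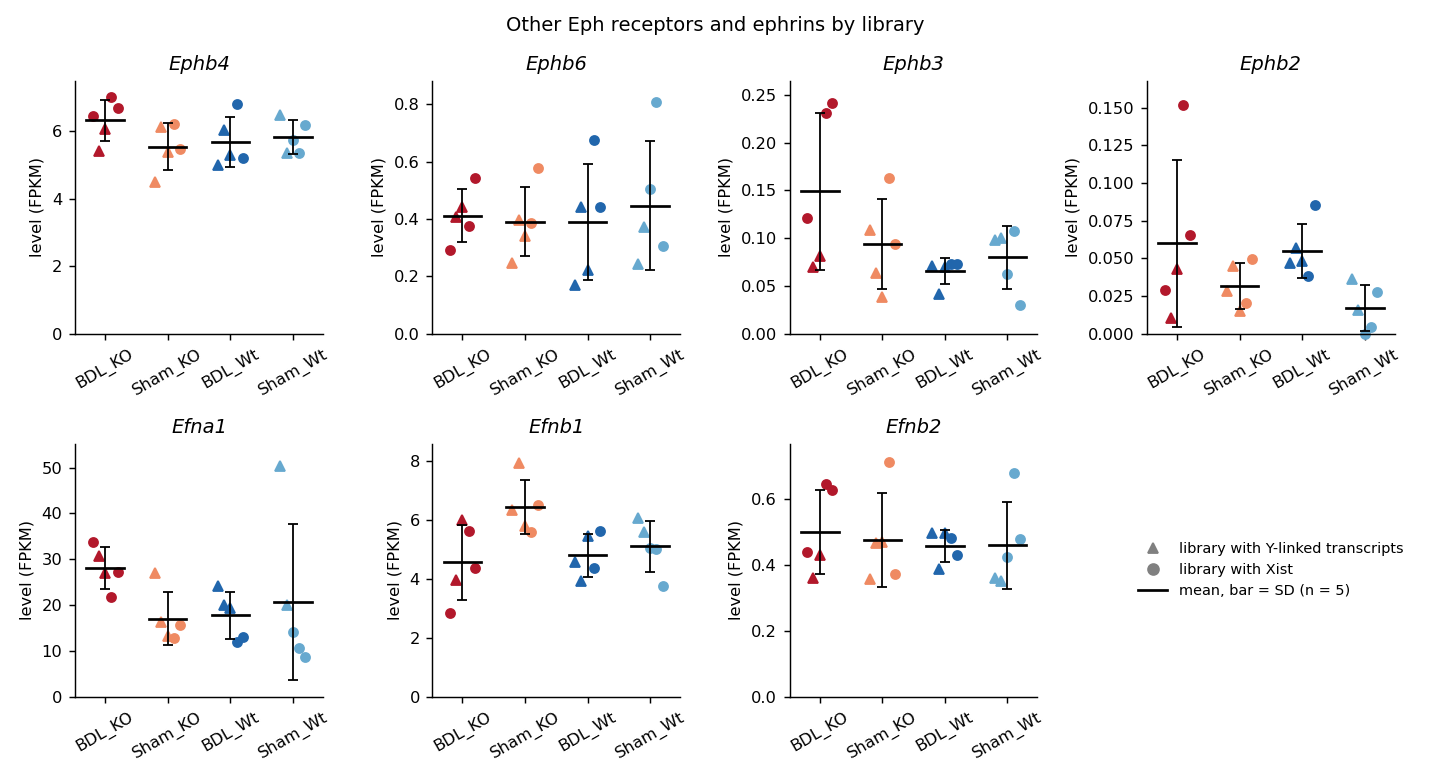
Levels in FPKM (vertical axes, each from 0) of the 7 other members in each library by group, with group means (lines) and SD (bars, n = 5); triangles are libraries with Y-linked transcripts and circles those with Xist. Efna1 spans 8.73 to 50.3 FPKM, Ephb4 4.49 to 7.00 and Efnb1 2.85 to 7.92, while Ephb2, Ephb3, Ephb6 and Efnb2 stay below 1 FPKM.

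The remaining 3 members lay below the filter. Efnb2 (chr8:8617434-8661242), the arterial ligand of EphB4, averaged 0.501 ± 0.129, 0.476 ± 0.143, 0.459 ± 0.0485 and 0.460 ± 0.133 FPKM in BDL_KO, Sham_KO, BDL_Wt and Sham_Wt livers, with 34 to 81 fragments a library. Every group overlapped the others. Ephb3 (chr16:21204755-21223305), an EphB receptor known from intestinal crypts, averaged 0.149 ± 0.0818 FPKM in BDL_KO, 0.0936 ± 0.0470 in Sham_KO, 0.0658 ± 0.0135 in BDL_Wt and 0.0800 ± 0.0329 in Sham_Wt livers. BDL_KO_2370 and BDL_KO_2371 held 28 and 29 fragments of Ephb3 and no other library more than 17.

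Ephb2 (chr4:136647539-136835988), the companion receptor of Ephb3 in crypts, had 2, 10, 5, 35 and 15 fragments in BDL_KO livers, against 5, 8, 3, 4 and 10 in Sham_KO livers. It had 10, 13, 13, 9 and 20 fragments in BDL_Wt livers, against 7, 3, 0, 1 and 7 in Sham_Wt livers. Every BDL_Wt library was above every Sham_Wt library, as for 16.6% of the genes above the filter, while the knockout groups overlapped. At its narrowest the gap was 9 against 7 fragments. Its level averaged 0.0551 ± 0.0180 FPKM in BDL_Wt and 0.0169 ± 0.0152 in Sham_Wt livers. With the filter removed the log2(FPKM + 0.5) difference was 0.10 ± 0.05 (limma, adjusted p = 0.198), a scale that compresses levels this low. A voom fit to recovered fragments of every gene with at least 10 fragments, chosen after the data were seen, gave 2.10 ± 0.66 (adjusted p = 0.0203) for the same comparison and -1.50 ± 0.91 (adjusted p = 0.645) for the difference between ligation responses. For Ephb3 and Efnb2 that fit gave adjusted p-values of 0.198 or more in every comparison.

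The family has 22 genes in the table, 14 receptors and 8 ephrins, and 14 of them are not members. Epha5, Epha6, Epha8 and Epha10 were listed at 0 in every library. Epha3, Epha4, Epha7, Ephb1, Efna2, Efna4 and Efnb3 lay below the filter, and Epha1, Efna3 and Efna5 were tested. Over the 3 tested receptors other than Epha2 the median log2 difference of BDL_Wt from Sham_Wt was -0.04, and over the 4 tested ephrins -0.08, beside -0.02 over all genes. For BDL_KO against Sham_KO the medians were 0.18 and 0.19, beside -0.01 over all genes.

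Epha1 (chr6:42358487-42373268), an EphA receptor of epithelia, rose with ligation in both genotypes. It was at 12.9, 12.8, 14.1, 13.2 and 8.82 FPKM in BDL_KO livers, against 5.99, 6.46, 7.11, 8.67 and 8.11 FPKM in Sham_KO livers. It was at 12.7, 16.8, 12.2, 16.3 and 12.3 FPKM in BDL_Wt livers, against 8.93, 9.22, 7.24, 7.99 and 9.93 FPKM in Sham_Wt livers. Ligated and sham libraries did not overlap in either genotype. The ligated group was higher without overlap for 5.85% of all tested genes in the knockout and 16.6% in wild type. The log2 difference was 0.72 ± 0.13 for BDL_KO against Sham_KO (limma, adjusted p = 0.000817; 0.63 without BDL_KO_2248 and BDL_KO_2359, adjusted p = 0.00401) and 0.66 ± 0.13 for BDL_Wt against Sham_Wt (adjusted p = 0.000816). The difference between the responses was 0.06 ± 0.19 (adjusted p = 0.929; 95% confidence interval -0.33 to 0.46), -0.08 with TPM scaling. For Epha2 the same quantity was -1.54. Epha1 overlaps Zyx and the antisense gene 2010310C07Rik, and reads in the overlaps cannot be told apart without strand. The calls were lost with Xist libraries alone, with adjusted p of 0.258 in the knockout and 0.0897 in wild type.

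Efna3 (chr3:89313899-89322965), an A-type ephrin, was scarce, with its highest mean in Sham_Wt livers. It had 17, 9, 20, 14 and 27 fragments in BDL_KO livers, against 18, 3, 7, 1 and 0 in Sham_KO livers. It had 12, 4, 14, 4 and 8 fragments in BDL_Wt livers, against 46, 24, 29, 24 and 42 in Sham_Wt livers. In FPKM every Sham_Wt library was above every Sham_KO and BDL_Wt library. Of all tested genes, 4.58% were lower without overlap in Sham_KO than in Sham_Wt, and 15.1% in BDL_Wt than in Sham_Wt. The Sham_Wt range was reached by 2 BDL_KO libraries, at 0.603 and 0.613 FPKM. The filter was passed only through Sham_Wt, which supplied 5 of the 8 libraries at 0.5 FPKM or more. Tests that contain Sham_Wt, the difference between ligation responses among them, therefore rest on that selection.

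The level of Efna3 averaged 0.439 ± 0.181, 0.166 ± 0.217, 0.183 ± 0.0950 and 0.811 ± 0.257 FPKM in BDL_KO, Sham_KO, BDL_Wt and Sham_Wt livers. The log2 difference of BDL_Wt from Sham_Wt was -0.93 ± 0.20 (limma, adjusted p = 0.00117, and 0.00190 with no filter on low values), and that of Sham_KO from Sham_Wt was -1.01 ± 0.20 (adjusted p = 0.00949, and 0.0176 with no filter). The 0.53 ± 0.20 of BDL_KO against Sham_KO did not pass (adjusted p = 0.0571), though it did with TPM scaling (adjusted p = 0.0260), library type as a term (0.0454) and voom (0.0192). The difference between ligation responses was 1.46 ± 0.28 (adjusted p = 0.0322) and 1.35 without BDL_KO_2248 and BDL_KO_2359 (adjusted p = 0.0411). That call was lost with no filter on low values (adjusted p = 0.0718), with TPM scaling (0.0665), within Y-linked (0.430) and Xist libraries (0.369), and in 14 of 20 fits that left out 1 library, all but those without Sham_KO_2347, BDL_Wt_2235, BDL_Wt_2237, BDL_KO_2365, BDL_KO_2248 or BDL_KO_2370, with adjusted p between 0.0134 and 0.0728 over all 20. Efna3 overlaps the antisense gene Gm15998, and with 0 to 46 fragments a library its fold changes depend on the pseudocount.

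Efna5 averaged 0.795 ± 0.150, 0.946 ± 0.301, 0.986 ± 0.353 and 1.04 ± 0.0787 FPKM in BDL_KO, Sham_KO, BDL_Wt and Sham_Wt livers, and passed no test (limma, adjusted p from 0.498 to 0.926). Efna4, below the filter, had 14, 8, 21, 11 and 3 fragments in BDL_Wt livers, against 2, 1, 2, 1 and 0 in Sham_Wt livers. The voom fit to low genes, chosen after the data were seen, gave 2.64 ± 0.72 for Efna4 in this comparison (adjusted p = 0.00791). For BDL_KO against Sham_KO that fit gave 1.39 ± 0.78 (adjusted p = 0.251). The difference between ligation responses was -1.26 ± 1.06 (adjusted p = 0.766), so the responses were not shown to differ. Efna4 overlaps the antisense gene 4731419I09Rik at its start.

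Genes acting on Eph receptors and ephrins were taken from lists of known partners. Of 7 tested proteases and phosphatases, 5 rose in BDL_KO relative to Sham_KO and 5 in BDL_Wt relative to Sham_Wt, where 12.3% and 18.1% of all genes rose, with medians of 0.55 and 0.59 beside -0.01 and -0.02 over all genes. Without BDL_KO_2248 and BDL_KO_2359 the knockout count was again 5, where 18.8% of all genes rose. Adam10, which cleaves A-type ephrins from Eph complexes, averaged 9.84 FPKM in BDL_KO and 6.18 in Sham_KO livers (0.61 ± 0.12; limma, adjusted p = 0.00118). It averaged 12.1 FPKM in BDL_Wt and 6.49 in Sham_Wt livers (0.85 ± 0.12, adjusted p = 2.55e-05). Ptpn1, a phosphatase that can dephosphorylate EphA receptors, rose by 0.59 and 0.79, and Ptprj by 0.55 and 0.59, in the knockout and wild-type comparisons.

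Of 18 tested cytoplasmic partners of Eph receptors, 5 rose and 2 fell in each ligation comparison, where 25.1% of all genes were called in the knockout and 35.6% in wild type, so the share was near that of all genes in wild type. In BDL_KO against BDL_Wt, 2 were higher and 1 lower, where 3.46% and 5.37% of all genes were. Without BDL_KO_2248 and BDL_KO_2359, 7 rose and 2 fell in the knockout, where 18.8% of all genes rose and 18.2% fell. In that fit 1 was higher in BDL_KO than in BDL_Wt, as were 3.24% of all genes. Arhgef15, a guanine nucleotide exchange factor of endothelium that binds EphB2 in neurons, averaged 1.15 FPKM in BDL_KO and 0.576 in BDL_Wt livers (0.62 ± 0.12; limma, adjusted p = 0.00254; 0.74 without those libraries, adjusted p = 0.00137). It was lower with ligation in both genotypes, with differences of -0.52 ± 0.12 in the knockout (adjusted p = 0.00356) and of -0.91 ± 0.12 in wild type (adjusted p = 1.25e-05). Sinusoidal endothelial markers fell in the same direction, 4 of 9 in the knockout and 6 of 9 in wild type, where 12.9% and 17.5% of all genes fell. The part of these markers in Arhgef15 was not tested. Sla, an adaptor of blood cells, averaged 0.846 FPKM in BDL_KO and 1.66 in BDL_Wt livers (-0.67 ± 0.16, adjusted p = 0.0125), a call lost without those libraries (-0.49, adjusted p = 0.0838). Between the same groups 4 of 10 monocyte and recruited macrophage markers were lower, with a median of -0.95, and 2 of 4 neutrophil markers, beside 5.37% of all genes. The part of these markers in Sla was not tested. Arhgef5 rose by 0.44 and 0.75 and Arhgef16, an exchange factor that binds EphA2, by 0.75 and 1.00 in the knockout and wild-type comparisons.

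Membrane partners of EphA2 were 5 tested genes, of which 2 rose in BDL_KO relative to Sham_KO and 4 in BDL_Wt relative to Sham_Wt, where 12.3% and 18.1% of all genes rose. Without BDL_KO_2248 and BDL_KO_2359, 4 rose and 1 fell in the knockout, where 18.8% of all genes rose and 18.2% fell. Cldn4, a tight junction protein, averaged 1.63 FPKM in BDL_KO and 3.53 in BDL_Wt livers, and its log2 differences from sham were 1.47 ± 0.38 in the knockout (limma, adjusted p = 0.00876) and 2.79 ± 0.38 in wild type (adjusted p = 2.20e-05). It was lower in BDL_KO than in BDL_Wt (-1.25 ± 0.38; limma, adjusted p = 0.0460), a call lost without those libraries (-0.44, adjusted p = 0.249). Cldn4 is also among the cholangiocyte markers by which those libraries stood apart. Mmp14, a protease that cleaves EphA2 and is counted among the proteases too, rose by 1.04 ± 0.23 in the knockout (adjusted p = 0.00324) and by 1.20 ± 0.23 in wild type (adjusted p = 0.000535). Cdh1, E-cadherin, averaged 18.1 FPKM in BDL_KO and 9.80 in Sham_KO livers (0.72, adjusted p = 0.0823; 1.25 without those libraries, adjusted p = 0.000310) and 24.8 in BDL_Wt and 10.8 in Sham_Wt livers (1.18, adjusted p = 0.00436). Itgb1 rose in wild type by 0.33 ± 0.11 (adjusted p = 0.0245), and its 0.29 in the knockout (adjusted p = 0.0555) became 0.49 without those libraries (adjusted p = 0.000255).

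Kinases and other signalling genes that act below Eph receptors were also measured, and those with the smallest adjusted p are named here, so they do not stand for their list (12.3% of all genes rose in the knockout and 18.1% in wild type). Src averaged 1.57 FPKM in BDL_KO and 0.785 in Sham_KO livers (0.58 ± 0.24; limma, adjusted p = 0.0887; 1.05 without BDL_KO_2248 and BDL_KO_2359, adjusted p = 0.000169), and 2.73 in BDL_Wt and 0.729 in Sham_Wt livers (1.40 ± 0.24, adjusted p = 0.000212). Its difference between responses was -0.82 ± 0.34 (adjusted p = 0.315). Cdc42 rose by 0.53 and 0.59 and Lyn by 0.44 and 0.72 in the knockout and wild-type comparisons. Rock2 rose in wild type by 0.71 ± 0.14 (adjusted p = 0.000777), and in the knockout its 0.37 (adjusted p = 0.0608) became 0.61 without those libraries (adjusted p = 0.000985). Lyn became 0.78 in the knockout without them (adjusted p = 7.32e-06). Of 4 tested partners of B-type ephrins, Sdcbp rose in wild type (0.79 ± 0.18, adjusted p = 0.00224), and also in the knockout without those libraries (0.81, adjusted p = 1.82e-05). Of the same partners, Rgs3 was lower in BDL_KO, at 0.545 FPKM against 1.41 in Sham_KO livers (-0.82 ± 0.25, adjusted p = 0.0244), a call lost without those libraries (-0.69, adjusted p = 0.0817).

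Genes that report ERK activity, a pathway that Eph signalling can restrain or feed, went both ways, as did all genes (25.1% called in the knockout and 35.6% in wild type, near evenly higher and lower). Of 11 tested, 2 rose and 2 fell in BDL_KO relative to Sham_KO, and 4 rose and 2 fell in BDL_Wt relative to Sham_Wt. Between ligated livers 1 was lower in BDL_KO than in BDL_Wt, as were 5.37% of all genes. Ier3 averaged 4.42 FPKM in BDL_KO and 1.08 in Sham_KO livers, and 10.1 in BDL_Wt and 1.24 in Sham_Wt livers. It was the gene lower in BDL_KO than BDL_Wt (-1.27 ± 0.32; limma, adjusted p = 0.0187), and the call was lost without BDL_KO_2248 and BDL_KO_2359 (-0.78, adjusted p = 0.134). Spry4, a feedback inhibitor, fell to 0.881 FPKM in BDL_KO, against 2.15 in Sham_KO livers, and to 0.615 in BDL_Wt, against 1.70 in Sham_Wt livers. Dusp5 rose in wild type by 1.21 ± 0.27 (adjusted p = 0.00186), and in the knockout its 0.38 (adjusted p = 0.328) became 0.77 without those libraries (adjusted p = 0.0262).

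The genes most like Epha2 across the 20 libraries were found by Pearson correlation of log2(FPKM + 0.5) among 9871 protein-coding genes averaging at least 1 FPKM. They were Snap23 (r = 0.86), Fbxl19 (0.83), Egr1 (0.82), Plk2 (0.81), Ywhag (0.81), Lrp11 (0.81), Rap1gds1 (0.80) and Abcc5 (0.80). The points share libraries, depth and group structure, so these values describe likeness only. Snap23, a membrane fusion protein, averaged 7.12, 7.00, 8.56 and 6.26 FPKM in BDL_KO, Sham_KO, BDL_Wt and Sham_Wt livers. Plk2, a stress-induced kinase, averaged 3.24, 2.29, 5.92 and 1.49 FPKM in the same groups.

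Egr1, an immediate-early transcription factor, was at 2.54, 18.9, 8.47, 17.5 and 7.64 FPKM in BDL_KO livers, against 4.45, 3.53, 3.71, 32.5 and 27.3 FPKM in Sham_KO livers. It was at 26.6, 25.8, 15.1, 11.0 and 15.7 FPKM in BDL_Wt livers, against 1.66, 2.79, 3.12, 2.69 and 2.31 FPKM in Sham_Wt livers. The highest Sham_KO values were in Sham_KO_2352 and Sham_KO_2353, 2 Xist libraries that had 11.7 and 9.91 FPKM of Epha2, while Sham_KO_2347 had 10.7 FPKM of Epha2 with 4.45 of Egr1. Egr1 rose in BDL_Wt relative to Sham_Wt (2.63 ± 0.58, limma adjusted p = 0.00160), and its difference between responses was -2.62 ± 0.81 (adjusted p = 0.177). Egr1 is shown for its likeness to Epha2, which was itself chosen by its response in these libraries. These Egr1 values therefore rest on that selection and are descriptions, not independent tests.

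**Figure D5:**
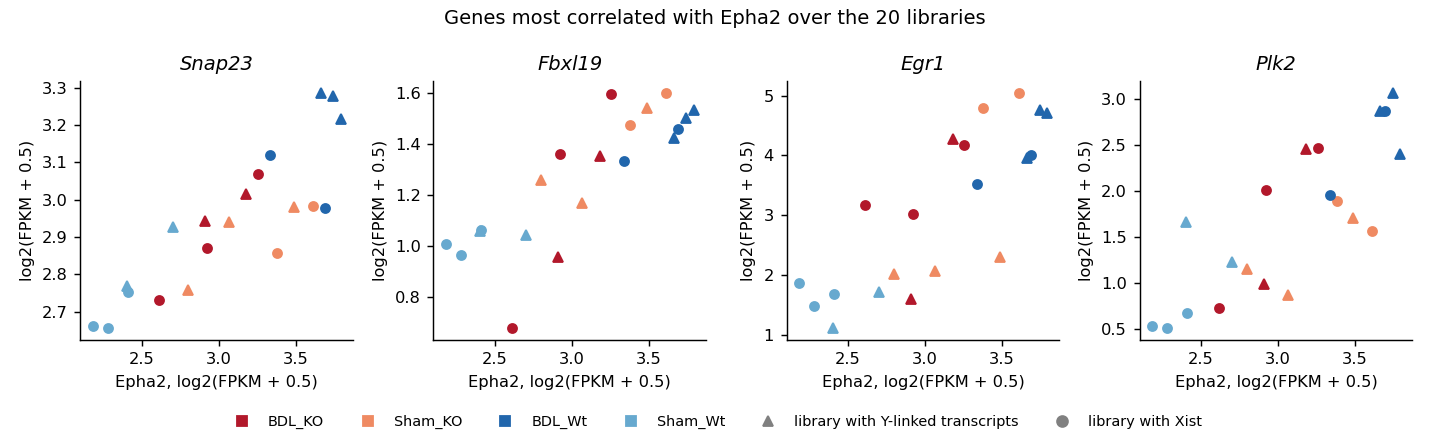
Log2(FPKM + 0.5) of Snap23, Fbxl19, Egr1 and Plk2 (vertical axes) against that of Epha2 (horizontal axes) in the 20 libraries, coloured by group, with triangles for libraries with Y-linked transcripts and circles for those with Xist. Most Sham_Wt libraries sit at the low end of the Epha2 axis and most BDL_Wt libraries at the high end, with r from 0.81 to 0.86.

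After removal of the group means the genes most like Epha2 were Mettl3 (r = 0.79), D930048N14Rik (0.78), Snx18 (0.77), Usp21 (0.77) and Cdk5rap1 (0.77), none of which was among the 8 leading genes before. Of those 8, Fbxl19 kept 0.76, Snap23 0.73, Plk2 0.71 and Abcc5 0.69, and the others ran from 0.41 to 0.61. Within the family the correlation with Epha2 over the 20 libraries was 0.37 for Epha1, 0.16 for Efnb1, 0.01 for Efna1 and -0.26 for Ephb4. All 4 lay far below the leading genes.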

How the data were processed

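PolyA RNA of mouse liver was sequenced in 20 libraries, with RNA taken by TRIzol and libraries made with a VAHTS Universal V6 kit, per the labels' protocols. The tools named, per the submitters' processing notes, are featureCounts 1.5.0-p3, HISAT2 2.0.5, DESeq2 1.20.0, CASAVA 1.8 and fastp, with the build GRCm38. No release of the gene annotation is named there. The authors deposited FPKM values per gene, which are normalized and not counts. Groups come from the library titles, and title numbers only name libraries.

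Genes at 0.5 FPKM or more in at least 5 of 20 libraries (14059 of 54532) were fitted as log2(FPKM + 0.5) with limma 3.58.1 (trend and robust options) in R 4.3.3, all 4 groups together, with Benjamini-Hochberg adjustment over all genes tested and a threshold of 0.05; log2 differences of low genes are understated on this scale. The fit was tested on simulated data, whose outcome is not given here, so no error rate for these FPKM values is claimed. Tables and figures used Python 3.11.15, pandas 2.3.3, numpy 2.4.6 and matplotlib 3.10.9. Between 98.2% and 98.5% of low values were whole fragments within 0.02 once divided by the value of 1 fragment at the gene's length; voom on the recovered fragments called 5018, 3366, 337, 1316 and 22 of 13951 genes in the 5 comparisons (BDL_Wt against Sham_Wt, BDL_KO against Sham_KO, Sham_KO against Sham_Wt, BDL_KO against BDL_Wt, and the difference between ligation responses). Tmem173 had an exact two-sided permutation test over libraries.

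The members and lists were chosen with earlier results of these data known. Named genes are the members, the other Eph and ephrin genes, up to 4 called genes per partner list with the smallest adjusted p, Tmem173, and the 8 and 5 genes most correlated with Epha2. Some results of the partner lists are not reported here. Alternatives were other pseudocounts, filters, scalings, library sets, a library-type term and voom. Scaling to total fragments, fits within a library type and voom on genes with at least 10 fragments were added after the data were seen. BDL_KO_2248 and BDL_KO_2359 were singled out by their markers in these data. Promoter windows matched 21 of 22 family genes.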

Additional observations from a re-analysis of the deposited data

Results flagged for a closer look

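Among 72 pairs of a gene and a group of 5 libraries, 5 held a library far from the other 4, where chance alone gives about 1 in 20. Epha2 in BDL_Wt had its lowest library, BDL_Wt_2237, at 9.59 FPKM, with the nearest other at 12.2. Epha1 in BDL_KO had BDL_KO_2371 at 8.82 FPKM, with the nearest at 12.8. Ephb3 in BDL_Wt had BDL_Wt_2235 at 0.0417 FPKM, with the nearest at 0.0703. Efna5 in Sham_KO had Sham_KO_2349 at 1.48 FPKM, with the nearest at 0.851. Efnb3 in BDL_KO had BDL_KO_2370 at 0.413 FPKM, with the nearest at 0.102.

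The ligation response of Efna3 differed between knockout and wild type by 1.46 on the log2 scale in the test of that difference (limma, adjusted p = 0.0322). Efna3 passed the filter through Sham_Wt, the call was lost with no filter (adjusted p = 0.0718) and in 14 of 20 fits that left out 1 library, and its cause was not tested.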

How the results depend on the processing

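The count of members other than Epha2 called between BDL_KO and Sham_KO, 1 as reported (Efnb1), was 0 with no filter on low values, with scaling to total fragments, without BDL_KO_2248 and BDL_KO_2359, and with only Y-linked or only Xist libraries. It was 2 (Efna1 and Efnb1) with library type as a term, and 0 to 1 when 1 library was left out. With TPM scaling, and with only the groups compared, it was 1, but the gene was Efna1. The other 4 comparisons gave 0 under these settings, while voom on every gene with at least 10 fragments called Ephb2 between BDL_Wt and Sham_Wt. The Epha2 difference between ligation responses, -1.54, was -1.25 in Y-linked libraries, and -1.78 to -1.40 under the other settings, with -1.66 to -1.45 when 1 library was left out. These values reuse the libraries that chose Epha2 and are a description only. No result changed sign past the threshold. The cause of these changes was not tested, apart from the fewer libraries or genes that some settings leave.

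Over all genes, leaving out 1 library gave 4279 to 4720 calls between BDL_Wt and Sham_Wt (5011 as reported), 2614 to 4096 between BDL_KO and Sham_KO (3534), 155 to 341 between sham groups (418), 618 to 2061 between ligated groups (1241) and 8 to 151 for the difference between responses (53). Other settings gave 911 to 6209, 550 to 5199, 0 to 821, 8 to 1663 and 0 to 178. The share of calls that were higher was 50.8%, 48.8%, 44.0%, 39.2% and 41.5% as reported, and 82.0%, 75.9%, 9.52%, 6.73% and 57.1% with TPM. No paired analysis was possible because the title numbers differ between groups. Ephb2, Ephb3, Efna3 and Efna4 rest on 0 to 46 fragments a library, so small differences in them were not detectable at this depth.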
